A study of Mus musculus with 92 samples.

Results

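The 8 genes described here encode the cell-surface receptors through which growth factors make and maintain myeloid cells: Csf1r, Csf2ra, Csf2rb, Csf2rb2, Csf3r, Kit, Flt3 and Il3ra. They were chosen by gene name from the deposited table of normalised expression, and all 8 were found among its 29956 named genes.

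Csf1r binds CSF-1 and IL-34 and is needed by most tissue macrophages and by microglia, while Kit binds stem cell factor and Flt3 binds FLT3 ligand on stem and progenitor cells; all of them are receptor tyrosine kinases of one class. Csf2ra and Il3ra are the chains that recognise GM-CSF and IL-3, Csf2rb is the signalling chain shared by GM-CSF, IL-3 and IL-5, and Csf2rb2 is a second such chain, found in mice, that works with IL-3. Csf3r is the receptor for G-CSF, and like the Csf2rb chains it has no kinase of its own and passes its signal through JAK kinases to STAT proteins.

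The study worked with ER-Hoxb8 cells, mouse myeloid progenitors held in that state by a Hoxb8 protein under oestrogen control, and compared them with primary marrow cells in culture and after transfer into the brain. It also asked what Adar1 guides and the JAK1 and JAK2 inhibitor baricitinib do to their macrophages. RNA was sequenced from 92 libraries in 25 groups. Wild-type FVB mice gave lineage-depleted bone marrow progenitors (BM progenitors, 3 libraries), bone marrow monocytes (BM monocytes, 3), macrophages grown from marrow for 7 days (BMD macrophages, 3) and microglia of brains that received no cells (9).

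ER-Hoxb8 cells of an FVB mouse heterozygous for Cas9 were taken as progenitors (3 libraries), on day 4 of differentiation (3) and as macrophages on day 7 (3). The paper states that 3 independent lines were made for this comparison, and the labels do not tie libraries to lines. For the brain groups, wild-type marrow cells (BMD MLC, for microglia-like cell, 6) or ER-Hoxb8 cells of genotype WT (ER-Hoxb8 MLC, 6) were injected into the brains of young Csf1r knockout hosts, which lack microglia, and were sorted back out. The donor cells of both groups have their own intact Csf1r. Cas9 heterozygous ER-Hoxb8 cells that received a non-targeting control guide (NTC) gave 3 progenitor and 3 macrophage libraries, those that received Adar1 sgRNA 1 gave 3 and 3, and those that received Adar1 sgRNA 2 gave 3 and 5, with all macrophages grown for 7 days. Further macrophages were grown for 7 days with 0, 0.0006, 0.016, 0.4 or 10 µM baricitinib, as NTC (3, 3, 4, 4 and 3 libraries) and as cells with sgRNA 1, labelled Adar1 KO (3, 3, 3, 3 and 4 libraries). Doses are given as labelled, and the methods text differs for some of them. The labels give no age for the mice and no time between injection and sorting.

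Several things limit these groups as models. ER-Hoxb8 progenitors are kept in GM-CSF with oestradiol, and all cultured macrophages are grown in M-CSF, so ligands of Csf2ra, Csf2rb and Csf1r were in the medium. Guide-carrying cells are sorted pools, so they can hold unedited cells. The ER-Hoxb8 cells in culture are heterozygous for Cas9 and those injected are labelled WT, so between them brain residence cannot be told apart from line and genotype. Brain cells were sorted by CD45 and CD11B, which other myeloid cells also carry. The gating figure that the paper cites also lists GFP, and the labels do not say which donor libraries were gated on it. These are bulk libraries, in which fewer cells of a type and less RNA per cell cannot be told apart.

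All levels are log2 counts per M (CPM) as the authors deposited them. The columns fall into 6 sets, each with one lowest value that stands for no reads, and values are compared within a set. The set of 12 progenitor and monocyte libraries has its lowest value at -4.34 and a depth of 33.1 to 52.6 M reads. For the set of 27 macrophage and brain libraries these are -3.62 and 9.5 to 36.0 M, for the set of 11 with sgRNA 1 and NTC -3.43 and 22.3 to 34.3 M, for the set of 8 with sgRNA 2 -3.56 and 17.2 to 28.5 M, and for the 33 baricitinib libraries -2.78 and 6.2 to 32.8 M. NTC macrophage 2 forms a set of 1, with a lowest value of -3.09 and 20.1 M reads, so it enters no test and its values are given beside the others. Depth was worked out from the value that 1 read takes, and 3 reads are used as the floor under which a level is not told apart from none.

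Differences are log2 fold changes from limma, with p-values adjusted by Benjamini-Hochberg over all genes tested in that comparison, and a gene is called when its adjusted p is below 0.05. These p-values measure the spread between libraries, and although the study describes biological replicates, the labels do not tie libraries to separate lines, cultures or animals. Sequence words of 31 bases show that Csf2rb and Csf2rb2 are near copies in part: 28.6% of the Csf2rb2 words and 18.9% of the Csf2rb words are shared between them. How the reads were split between these 2 genes is therefore uncertain, and their values should be read together. For the other 6 members at most 0.219% of the words are shared.

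Marker genes were summed to check the labels. Macrophage markers (5 genes in the table, led by Cd68 in most libraries, none at the floor in any) summed to 72.0 to 156 CPM in BM progenitors, 801 to 859 in BM monocytes, 4720 to 6240 in BMD macrophages and 4870 to 8900 in ER-Hoxb8 macrophages. Sall1, which marks microglia among brain macrophages, had a median of 8.60 log2 CPM in microglia, -0.07 in BMD MLCs and 0.79 in ER-Hoxb8 MLCs, so both MLC groups lack this marker at the level of microglia.

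Some groups hold signs of other cells. Neutrophil and granule genes (7 genes, led by Mpo in most marrow libraries and by Ngp in BMD MLCs) summed to 6570 to 23000 CPM in BM progenitors, 5400 to 15100 in BM monocytes, 16900 to 25200 in NTC progenitors and 4190 to 30500 in BMD MLCs. BM progenitors also had erythroid genes (4 genes, led by Car1) at 1240 to 2630 CPM and mast cell and basophil genes (6 genes, led by Mcpt8) at 457 to 741 CPM. In BM monocytes the mast cell and basophil genes summed to 690 to 826 CPM and the monocyte genes Ly6c2 and Ccr2 to 2440 to 3010 CPM.

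Libraries that stand apart are named here because several results rest on them. The 3 ER-Hoxb8 progenitor libraries differ from each other: macrophage markers summed to 1930, 3350 and 449 CPM in libraries 1, 2 and 3, and library 2 is close to day 4 library 2, which has 3450 CPM. Library 3 has 2770 CPM of neutrophil genes. Each ER-Hoxb8 progenitor library correlates with the others of its group at a median Pearson r of 0.867 to 0.896 over 12056 genes, against 0.946 to 0.963 in BM progenitors. In BMD macrophages, library 3 is the lowest for Csf3r at 4.22 log2 CPM. Its column name begins with wBM, while those of the others in its group begin with Mac.

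Among brain libraries, ER-Hoxb8 MLCs agree least within their group, with median r of 0.799 to 0.855. Their column names mark libraries 1 to 3 as GFP and 4 to 6 as WT, and these differ in Csf1r, with 11.37, 10.23 and 10.33 log2 CPM in 1 to 3 and 8.61, 7.97 and 6.08 in 4 to 6. The column names of 4 to 6 also end in Lo, which the labels do not explain. ER-Hoxb8 MLC 6 has 5730 CPM of the monocyte genes and 1510 CPM of stem and progenitor genes, and ER-Hoxb8 MLC 4 and 5 have 16900 and 36900 CPM of neutrophil genes. Microglia 8 has a median r of 0.747 with its group and 628 CPM of oligodendrocyte markers. In the baricitinib set, Adar1 KO 0.4 µM library 2 has 1120 CPM of dendritic cell markers against 68.5 and 90.2 in the other 2 of its group. Its Adar (7.38 log2 CPM) and Csf3r (7.78) are near those of the KO at 0 µM, 6.37 to 7.42 and 7.66 to 7.71. In the other 2 of its group Adar is 4.12 and 4.21, and Csf3r 6.44 and 6.27.

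In bone marrow, Csf1r stood at 6.00, 6.06 and 6.34 log2 CPM in the progenitors and at 9.62, 9.30 and 8.85 in the monocytes. ER-Hoxb8 progenitors had 7.75, 10.45 and 3.10, and day 4 cells had 10.22, 10.40 and 9.79. Every monocyte and day 4 value lay above every BM progenitor value, while the ER-Hoxb8 progenitors reached from below the BM progenitors to above all the other 11 libraries.

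For 3 of the cytokine receptors the promoter is shown, because the RNA of these members carries much of the macrophage, brain and drug results that follow. Csf1r and Csf2rb, which also carry such results, have no entry among the promoters used. The sequences are the 250 bases before the start of the gene, from RefSeq on GRCm38.p6, read 5′ to 3′ on the strand of the gene: Csf2ra is chr19:61228419-61228668 on the minus strand, Csf2rb2 is chr15:78305722-78305971 on the minus strand and Csf3r is chr4:126024409-126024658 on the plus strand. Capitals mark matches to 4 motifs searched on both strands, TTCNNNGAA as bound by STAT proteins, GAGGAA as bound by PU.1, TGTGGT as bound by RUNX proteins and AGATAA as bound by GATA proteins.
Csf2ra: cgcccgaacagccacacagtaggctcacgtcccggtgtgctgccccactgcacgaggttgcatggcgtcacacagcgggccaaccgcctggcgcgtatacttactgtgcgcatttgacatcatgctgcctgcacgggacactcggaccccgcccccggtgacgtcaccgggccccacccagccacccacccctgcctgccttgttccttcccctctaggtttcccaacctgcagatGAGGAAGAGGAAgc
Csf2rb2: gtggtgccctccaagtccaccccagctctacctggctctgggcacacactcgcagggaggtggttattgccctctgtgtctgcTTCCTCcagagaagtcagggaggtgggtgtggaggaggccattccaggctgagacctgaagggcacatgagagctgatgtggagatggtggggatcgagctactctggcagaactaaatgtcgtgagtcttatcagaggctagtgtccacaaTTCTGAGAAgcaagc
Csf3r: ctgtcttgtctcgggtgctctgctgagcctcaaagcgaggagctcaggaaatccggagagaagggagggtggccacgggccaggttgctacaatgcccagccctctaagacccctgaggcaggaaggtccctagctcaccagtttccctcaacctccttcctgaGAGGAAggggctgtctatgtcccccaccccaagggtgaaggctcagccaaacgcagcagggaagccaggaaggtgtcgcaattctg
Csf2ra has GAGGAA at 14 and at 8 bases before its start, and Csf3r has it at 86. Csf2rb2 has the STAT motif, as TTCTGAGAA, at 15 bases before its start, and GAGGAA on the other strand, seen here as TTCCTC, at 167. Of 32851 promoters of the same length, 7.02% hold the STAT motif, 23.3% GAGGAA, 14% TGTGGT and 9.99% AGATAA, and no matches overlapped here. RefSeq entries were found for 6 of the 8 members; Kit has GAGGAA at 223 bases before its start, or 227 from its other listed start, and Flt3 and Il3ra have no match.

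Csf2ra, which recognises GM-CSF, stood at 2.19, 2.90 and 2.90 log2 CPM in BM progenitors, 4.52, 5.26 and 5.13 in BM monocytes, 5.09, 5.52 and 3.77 in ER-Hoxb8 progenitors and 4.91, 5.52 and 5.20 in day 4 cells. Its signalling partner Csf2rb stood at 6.09, 5.95 and 5.94 in BM progenitors, 8.17, 7.91 and 7.66 in BM monocytes, 8.94, 8.18 and 7.77 in ER-Hoxb8 progenitors and 7.50, 8.07 and 6.72 in day 4 cells. For both subunits the 3 BM progenitors were the 3 lowest of the 12 libraries. Csf2rb2 stood at 4.09, 4.03 and 3.54 in BM progenitors, 5.57, 5.24 and 4.70 in monocytes, 6.02, 5.71 and 2.68 in ER-Hoxb8 progenitors and 5.42, 5.61 and 4.37 in day 4 cells, with ER-Hoxb8 progenitor 3 below all others.

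Il3ra, the chain that recognises IL-3, stood at 1.00, 2.16 and 1.21 log2 CPM in BM progenitors and 2.24, 2.94 and 3.09 in BM monocytes. The ER-Hoxb8 progenitors had -0.14, -4.24 and -2.36 and the day 4 cells -0.62, -4.34 and -3.22, so all 6 lay below all 6 marrow libraries. Csf3r stood at 5.83, 6.92 and 6.56 in BM progenitors, 8.61, 8.75 and 8.11 in monocytes, 3.60, 7.32 and 2.88 in ER-Hoxb8 progenitors and 6.01, 7.30 and 5.76 in day 4 cells. Monocytes were the highest group for Csf3r, with no overlap with the other 9 libraries.

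Kit, the stem cell factor receptor, stood at 8.13, 7.02 and 7.33 log2 CPM in BM progenitors and 4.42, 4.50 and 3.13 in BM monocytes. ER-Hoxb8 progenitors had 5.03, -0.76 and 1.67, and day 4 cells 4.30, -1.15 and -1.80. Library 1 was the highest of both ER-Hoxb8 groups, and all 6 lay below the BM progenitors. Flt3 stood at 4.12, 4.15 and 4.20 in BM progenitors, 3.04, 2.98 and 3.00 in BM monocytes, -1.97, -1.43 and 2.67 in ER-Hoxb8 progenitors and -2.21, -1.51 and -2.34 in day 4 cells. Only ER-Hoxb8 progenitor 3 came near the marrow groups.

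**Figure D1:**
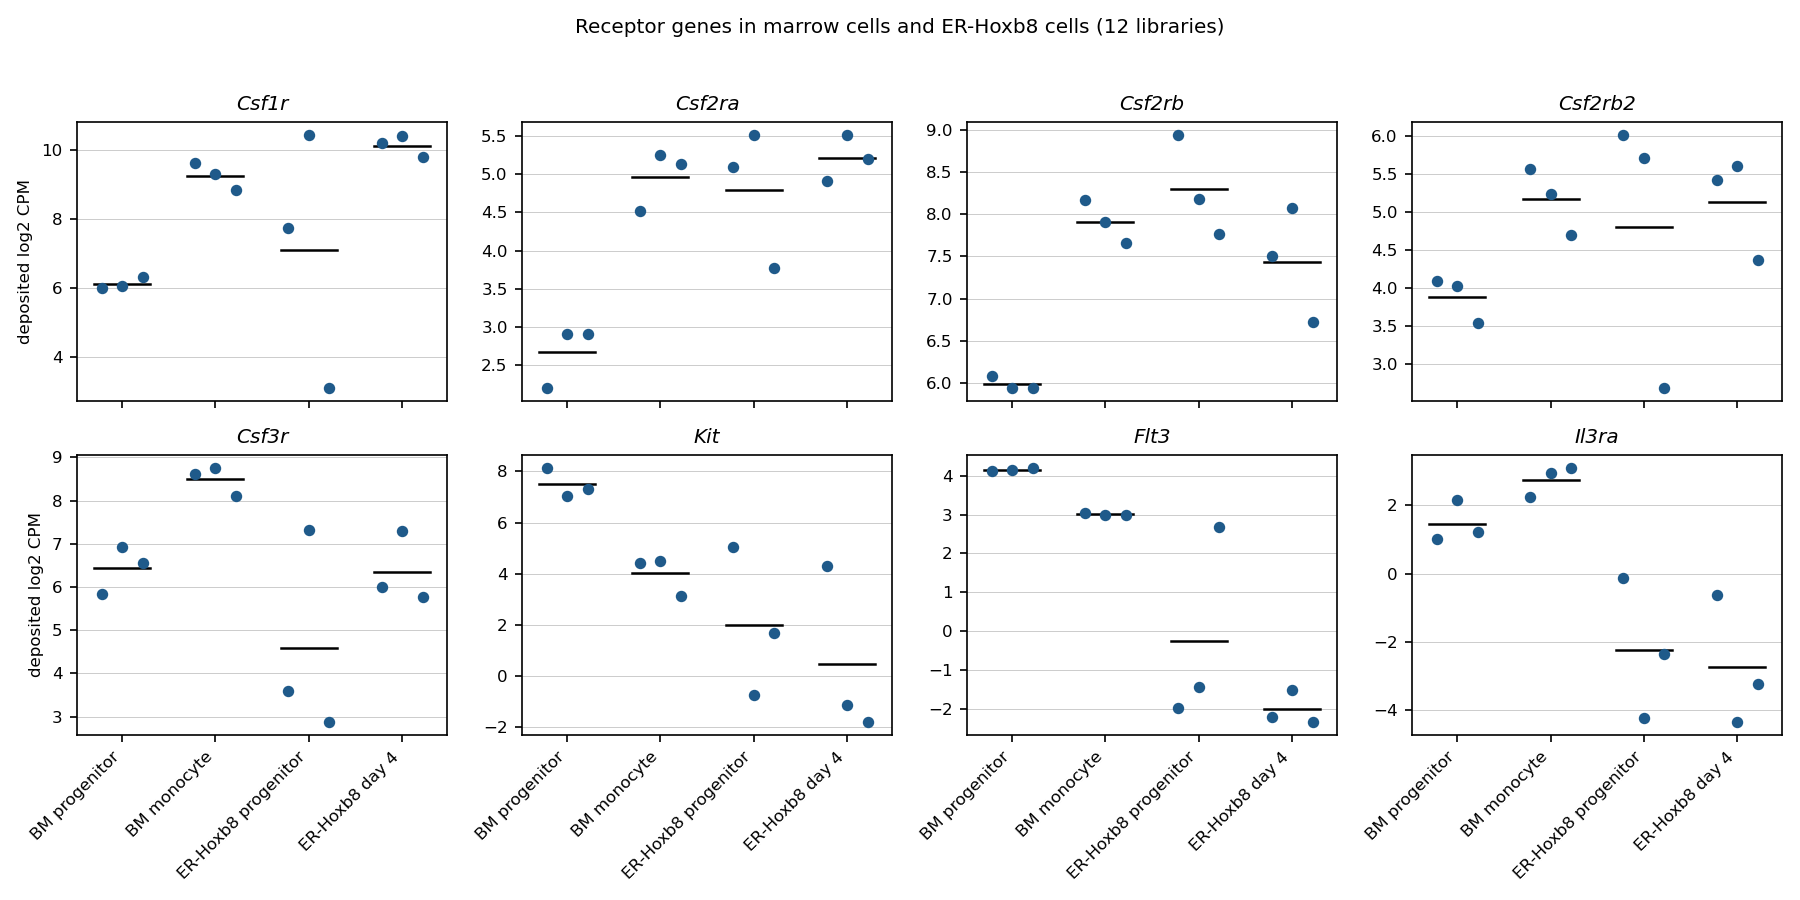
Levels of the 8 receptors in the 12 progenitor and monocyte libraries, as deposited log2 CPM, one panel per gene; dots are libraries and bars are group means. Kit lies between 7.02 and 8.13 in BM progenitors and at 5.03 or less in every other library, and the ER-Hoxb8 progenitors spread from 3.10 to 10.45 for Csf1r.

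Between bone marrow progenitors and monocytes, the GM-CSF receptor changed as a pair. Monocytes had Csf2ra 4.95-fold higher (log2 fold change 2.31, SE 0.43, adjusted p 0.0060) and Csf2rb 3.78-fold higher (1.92, SE 0.36, adjusted p 0.0063), in 3 of 3 libraries against 3. These are 2 of 8 receptors called, where 13.8% of the 12056 genes tested were called. Every monocyte value also lay above every progenitor value for Csf1r, Csf2rb2, Csf3r and Il3ra and below it for Kit and Flt3, but these 6 did not pass in the fit over the 12 libraries, with Csf1r at 3.12 (SE 1.29, adjusted p 0.13), Csf3r at 2.05 (SE 0.90, 0.15) and Kit at -3.47 (SE 1.57, 0.16).

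That fit takes its spread from all 4 groups, the uneven ER-Hoxb8 progenitors included. In a fit of the 2 marrow groups alone all 8 receptors were called, where 34.1% of 11537 genes were, with adjusted p of 8.0e-05 for Csf1r, 6.0e-04 for Kit, 0.0015 for Csf3r, 0.0049 for Flt3, 0.0095 for Csf2rb2 and 0.046 for Il3ra. In the fit over the 12 libraries the median log2 fold change was 1.61 over the 8 receptors and -0.09 over all genes, and 5 of 17 signalling genes were called, all higher in monocytes, among them the kinases Fes (2.04) and Lyn (1.88) and the phosphatase Ptpn6 (1.38). Myc was lower (-2.29), the only 1 of 6 feedback and target genes called, the transcription factor gene Spi1, which encodes PU.1, was higher (2.33) as 1 of 6, and 0 of 3 ligand genes were called, 0 of them at an unadjusted p below 0.05. Erythroid genes summed to 35.7 to 71.4 CPM in monocytes against the 1240 to 2630 CPM in progenitors given before and B lineage genes to 22.5 to 29.3 against 167 to 834, with 3 of 4 called lower, as were 2 of 4 dendritic cell genes, and their part in these differences was not tested.

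ER-Hoxb8 progenitors had more RNA of both GM-CSF receptor subunits than bone marrow progenitors and less of Kit, Flt3 and Il3ra. Csf2rb was 4.93-fold higher (2.30, SE 0.36, adjusted p 6.7e-04) and Csf2ra 4.38-fold higher (2.13, SE 0.43, adjusted p 0.0035). Flt3 was 21.2-fold lower (-4.40, SE 0.94, adjusted p 0.0049), Kit 45.6-fold lower (-5.51, SE 1.57, adjusted p 0.023) and Il3ra lower (-3.70, SE 1.07, adjusted p 0.024), with no overlap between the groups for these 5. They are 5 of 8 called, where 25.5% of genes were, and the BM progenitors also serve in the comparison before.

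The calls of Kit and Il3ra were lost in several fits. For Kit the value was -5.19, -5.75 and -5.59 (adjusted p 0.076, 0.052 and 0.061) without BM progenitor 1, 2 or 3, and -4.14 (0.068) without ER-Hoxb8 progenitor 2, while without ER-Hoxb8 progenitor 1 it was -7.03 (0.0077). Flt3 stayed called without ER-Hoxb8 progenitor 1, 2 or 3, at -3.54 (0.019), -3.81 (0.015) and -5.86 (4.7e-06). Il3ra was at -4.75 (0.0076) without ER-Hoxb8 progenitor 1 and at -3.93, -3.35 and -3.82 without BM progenitor 1, 2 or 3, and its adjusted p was 0.051, 0.086 and 0.061 in those 3 fits, 0.070 without ER-Hoxb8 progenitor 2 (-2.71), 0.18 with quantile normalisation (-1.85) and 0.051 in the fit of the 2 groups alone. Leaving out 1 library also brought calls or turned values: Csf1r (0.97, adjusted p 0.63 with all) was at 2.96 (0.0030) without ER-Hoxb8 progenitor 3 but at -0.71 (0.62) without 2, Csf2rb2 (0.92, 0.39) at 1.98 (0.0028) without 3 but 0.31 (0.82) without 1, and Csf3r (-1.84, 0.16) at -3.20 (5.6e-04) without 2 but -0.98 (0.41) without 3.

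Around the receptors, Socs3, a feedback inhibitor of cytokine signalling, was higher in ER-Hoxb8 progenitors (4.74) as 1 of 6 such genes, and 4 of 17 signalling genes were higher, Gab2 (1.66), Lyn (1.54), Fes (1.27) and Ptpn6 (0.95). Of 6 transcription factor genes 4 were lower, Gata2 (-6.99), Cebpe (-3.43), Irf8 (-3.29) and Runx1 (-1.81). Kitl, the gene of stem cell factor, was at or under the floor in all 3 ER-Hoxb8 progenitors and at least 23.1-fold lower, as 1 of 3 ligand genes. Over the 8 receptors the median was -0.46, against -0.08 over all genes. Macrophage markers summed to more in all 3 ER-Hoxb8 progenitor libraries than in any BM progenitor. Called lower were all 4 erythroid, 4 mast cell and basophil, 7 neutrophil, 4 B lineage and 3 megakaryocyte genes tested, 3 of 4 dendritic cell genes and 3 of 4 stem and progenitor genes, the last list summing to 1.67 to 18.8 CPM against 119 to 191. The part of these cells in the receptor differences was not tested.

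From ER-Hoxb8 progenitor to day 4, no receptor was called, and no gene at all was called: limma found 0 of 12056, with 1129 genes and 2 receptors at an unadjusted p below 0.05. The groups overlapped for all 8 receptors, while day 4 lay below the progenitor of the same number in 3 of 3 for Csf2rb, Kit, Flt3 and Il3ra, none of them called with a replicate block either. Csf1r was at 3.04 (SE 1.29, adjusted p 0.52) and Csf3r at 1.76 (SE 0.90, 0.56), but without ER-Hoxb8 progenitor 2, the library near the day 4 cells, both were called, at 4.71 (0.011) and 3.12 (0.0023), and without ER-Hoxb8 progenitor 3 they were at 1.04 (0.73) and 0.90 (0.86). The other values were 0.42 for Csf2ra, -0.86 for Csf2rb, 0.33 for Csf2rb2, -1.53 for Kit, -1.77 for Flt3 and -0.48 for Il3ra. In fits without 1 library, Kit went from -3.45 to -0.01, Flt3 from -2.64 to -0.32, Il3ra from -1.54 to 0.57 and Csf2rb2 from -0.73 to 0.94, and the median was -0.08 against -0.01 over all genes. None of 3 ligand, 17 signalling, 6 feedback and 6 transcription factor genes was called, with 0, 1, 3 and 1 at an unadjusted p below 0.05.

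Day 4 cells set against BM monocytes differed in the receptors of IL-3 and FLT3 ligand. Il3ra was 44.7-fold lower (-5.48, SE 1.07, adjusted p 0.0040) and Flt3 32.6-fold lower (-5.03, SE 0.94, adjusted p 0.0031), in 3 of 3 libraries each. With 2 of 3 day 4 libraries at or under the floor, the size of the Il3ra fold is uncertain. Csf1r (0.88, adjusted p 0.71), Csf2ra (0.24), Csf2rb (-0.48) and Csf2rb2 (-0.04) gave no call. These are 2 of 8 receptors, where 17.5% of genes were called, and the monocytes and day 4 cells also serve in the comparisons before. Kit was at -3.57 (SE 1.57, adjusted p 0.15), and was called without day 4 library 1, its one high library, at -5.49 (0.018), but was at -2.77 (0.35) and -2.44 (0.40) without 2 or 3; Csf3r was at -2.13 (SE 0.90, 0.14), and was called in the fit of the 2 groups alone (0.0060). Their median was -1.31, against -0.01 over all genes.

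In the same comparison 4 of 17 signalling genes were lower in day 4 cells, Jak2 (-1.21), Cbl (-1.25), Pik3cd (-1.27) and Stat5b (-0.91), and 3 of 6 transcription factor genes were lower, Gata2 (-7.53), Myb (-5.25) and Cebpe. Bcl2l1, a survival gene, was higher (3.12) as 1 of 6 feedback and target genes, and 0 of 3 ligand genes were called, 0 at an unadjusted p below 0.05. Neutrophil genes summed to 54.0 to 77.7 CPM in day 4 cells against the 5400 to 15100 CPM in monocytes, mast cell and basophil genes to 1.19 to 1.62 CPM against 690 to 826, and 3 of 4 stem and progenitor, 2 of 4 dendritic cell, 3 of 4 B lineage and 3 of 3 megakaryocyte genes were lower, and their part in the Il3ra and Flt3 values was not tested.

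Across the set of 12, the order of Csf1r group means was day 4 cells 10.14 (SD 0.31), monocytes 9.26 (0.39), ER-Hoxb8 progenitors 7.10 (3.72) and BM progenitors 6.13 (0.18), in which only the day 4 cells and monocytes are neighbours clear of each other by their spread. For Kit it was BM progenitors 7.49 (0.57), monocytes 4.02 (0.77), ER-Hoxb8 progenitors 1.98 (2.91) and day 4 cells 0.45 (3.35), with the first 2 clear of each other and the other two neighbours not. Il3ra ran from monocytes 2.76 (0.46) and BM progenitors 1.46 (0.62) to ER-Hoxb8 progenitors -2.24 (2.05) and day 4 cells -2.73 (1.91), of which the last 2 do not differ beyond their spread. These orders go by SD and are not tests. Over the 12 libraries, limma did not call Csf1r between day 4 cells and monocytes (0.88, adjusted p 0.71). Nor did it call Kit between monocytes and BM progenitors (-3.47, adjusted p 0.16).

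Among cultured macrophages, Csf1r stood at 11.39, 10.69 and 11.73 log2 CPM in BMD macrophages and at 10.78, 10.78 and 8.51 in ER-Hoxb8 macrophages, with overlap. Csf2ra was 4.31, 4.51 and 4.64 against 4.97, 5.47 and 4.25, and Csf2rb 7.90, 7.77 and 7.42 against 7.66, 7.48 and 7.55, both with overlap. Il3ra was 3.21, 3.81 and 3.65 against -0.64, -3.62 and -3.62, the last 2 with no reads, and the groups lay far apart. Csf2rb2 was 6.33, 5.98 and 6.15 against 5.57, 5.18 and 4.68, without overlap, and Csf3r 6.84, 7.33 and 4.22 against 6.16, 8.01 and 7.26. Kit was -2.16, -1.98 and -3.62 against 2.57, -0.92 and -3.62, 1 library of each group having no reads, and Flt3 was -1.34, -1.76 and -2.28 against -1.94, -2.85 and -1.38.

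In the brain, Csf1r had its lowest, median and highest values at 9.26, 11.57 and 13.86 log2 CPM in the 9 microglia, 9.62, 11.06 and 11.43 in the 6 BMD MLCs and 6.08, 9.42 and 11.37 in the 6 ER-Hoxb8 MLCs. Csf2ra was at 0.04, 2.42 and 5.41 in microglia, 4.48, 5.57 and 7.60 in BMD MLCs and 4.81, 5.65 and 6.09 in ER-Hoxb8 MLCs. Microglia were the lowest of the 3 for Csf2ra, with an overlap made by the highest microglia library alone reaching into the MLC range. Csf2rb was at 6.15, 6.48 and 7.60 in microglia, 6.42, 7.24 and 7.57 in BMD MLCs and 7.55, 7.90 and 9.43 in ER-Hoxb8 MLCs, and Csf2rb2 at 2.20, 3.47 and 4.60, 3.33, 3.63 and 4.49, and 4.40, 5.09 and 6.20. For both beta chains ER-Hoxb8 MLCs were the highest, with an overlap at the edges.

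Csf3r in the brain was at 5.41, 7.83 and 9.25 log2 CPM in microglia, 6.83, 7.60 and 8.05 in BMD MLCs and 6.06, 6.60 and 8.20 in ER-Hoxb8 MLCs, so the 3 groups share a range. Flt3 was at 1.57, 2.36 and 3.19 in microglia, 1.60, 2.53 and 4.61 in BMD MLCs and -1.35, 0.81 and 2.24 in ER-Hoxb8 MLCs, above nearly all cultured macrophages. Kit was at the floor in 8 of 9 microglia and reached -1.11 in the other, while BMD MLCs went from -3.62 to 2.62 and ER-Hoxb8 MLCs from -3.62 to 2.31. Il3ra was at -3.62, -0.33 and 1.65 in microglia and -3.62, -1.42 and 1.79 in BMD MLCs, and was at the floor in 5 of 6 ER-Hoxb8 MLCs, with 1.05 in library 6.

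**Figure D2:**
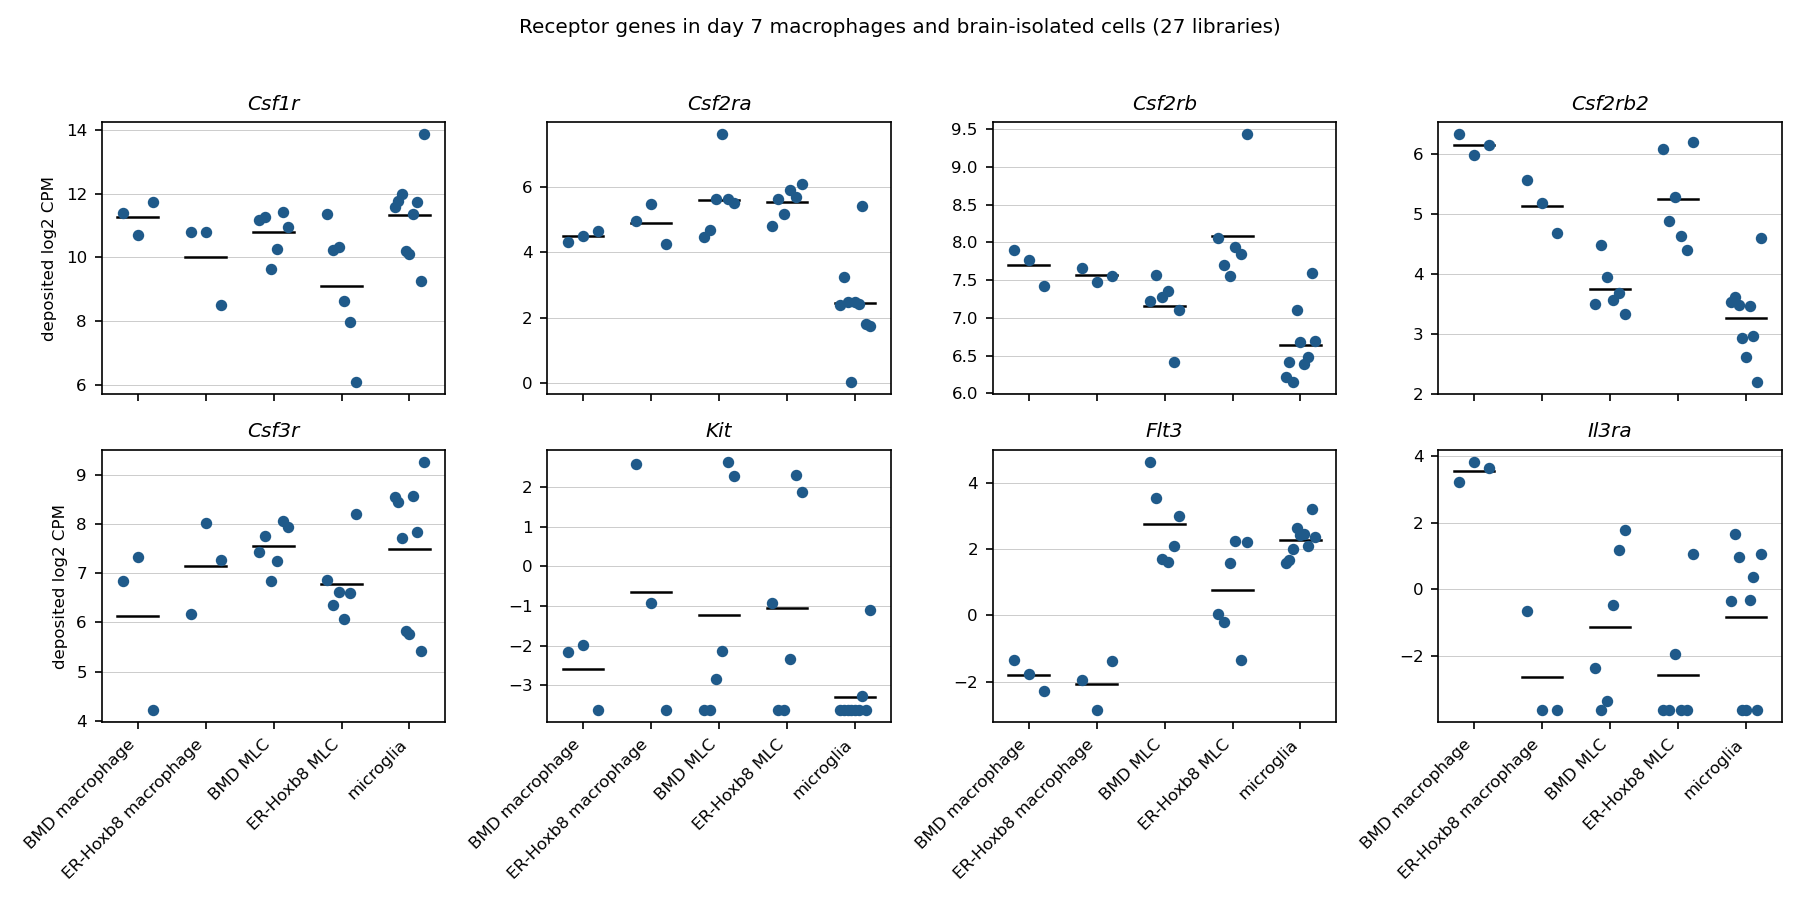
Levels of the 8 receptors in the 27 macrophage and brain libraries, as deposited log2 CPM, one panel per gene; dots are libraries and bars are group means. Il3ra lies at 3.21 to 3.81 in BMD macrophages and at or below -0.64 in ER-Hoxb8 macrophages, and Flt3 is above 1.5 in every microglia and BMD MLC library.

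Between ER-Hoxb8 and BMD macrophages the IL-3 receptor chain was the only receptor called. Il3ra was 72.5-fold lower in ER-Hoxb8 macrophages (-6.18, SE 1.56, adjusted p 0.027), 1 of 8 receptors called, where 2.29% of 13377 genes were, a fold of uncertain size as 2 of 3 libraries have no reads. The call was lost without BMD macrophage 1, 2 or 3 (adjusted p 0.082, 0.088 and 0.090) and without ER-Hoxb8 macrophage 2 or 3 (0.12 and 0.14, with -5.68 for both). Csf2rb2 was at -1.01 (SE 0.50, adjusted p 0.58), Csf1r at -1.25 (SE 1.02, 1.0), Csf3r at 1.01 (0.06 without BMD macrophage 3) and Kit at 1.93, none of them called. None of 3 ligand, 17 signalling, 8 feedback and 6 transcription factor genes was called by limma, with 2, 0, 1 and 0 at an unadjusted p below 0.05, and the receptor median was -0.20 against -0.00 over all genes.

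Marrow cells in the brain had more Flt3 RNA and less Csf2rb2 and Il3ra RNA than marrow macrophages in culture. In BMD MLCs, Flt3 was 23.4-fold higher (4.55, SE 0.72, adjusted p 3.9e-05), Csf2rb2 5.29-fold lower (-2.40, SE 0.43, adjusted p 2.0e-04) and Il3ra 25.9-fold lower (-4.69, SE 1.35, adjusted p 0.010), in 6 of 6 libraries each, with no overlap. The Il3ra fold is of uncertain size, with 3 of 6 MLCs at or under the floor. So is the Flt3 fold, with 1 of 3 BMD macrophages there. Flt3 lay below the filter of CPM 1 in all cultured macrophages of this set, so it entered the test through the brain groups. They are 3 of 8 receptors, where 30.1% of genes were called. Csf1r (-0.49, adjusted p 0.70), Csf2ra (1.10, 0.24), Csf2rb (-0.54, 0.23), Csf3r (1.41, 0.15, or 0.46 and 0.73 without BMD macrophage 3) and Kit (1.36, 0.50) were not called, and the median was 0.31 against 0.01. With genes of a mean CPM above 5 alone, Flt3 and Il3ra leave the test and 1 receptor is called, Csf2rb2.

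Around them in BMD MLCs, 3 of 6 transcription factor genes were higher, Cebpe (6.56), Myb (4.49) and Spi1 (1.14), and Socs2 was higher (2.37) as 1 of 8 feedback and target genes. Of 17 signalling genes 2 were higher, with Lyn at 0.90, and 3 lower, Ptpn11 (-2.13), Shc1 (-1.83) and Stat5a (-1.38), and 0 of 3 ligand genes were called. Neutrophil genes summed to 4190 to 30500 CPM in these 6 libraries against 3.13 to 36.6 CPM in BMD macrophages, with 5 of 7 called higher, dendritic cell markers to 61.0 to 217 against 45.9 to 76.1, with 3 of 5, Zbtb46, Xcr1 and Cd209a, and monocyte genes to 154 to 358 against 4.20 to 6.89, with 2 of 2. Their part in the receptor values was not tested.

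ER-Hoxb8 cells in the brain also had more Flt3 than the ER-Hoxb8 macrophages in culture, which are of another genotype, 7.01-fold (2.81, SE 0.72, adjusted p 0.0040), in 6 of 6 libraries with no overlap. It was the 1 receptor of 8 called, where 34.0% of genes were, and in a fit of the 2 groups alone its adjusted p was 0.052. Without ER-Hoxb8 MLC 6 and microglia 8 it was at 2.52 (adjusted p 0.0059). The Flt3 fold is of uncertain size here too, as 1 of 3 ER-Hoxb8 macrophages was at or under the floor. Csf1r was at -0.93 (adjusted p 0.43) over all 6, at -2.47 (0.028) with the 3 WT libraries alone and at -0.32 (0.78) without ER-Hoxb8 MLC 6, and the median was 0.08 against -0.11. Of 8 feedback and target genes 4 were higher, Socs3 (5.31), Socs2 (1.97), Myc (1.04) and Socs1, at least 108-fold, and Bcl2l1 was lower (-4.26). Jak2 (1.79) and Lyn (1.54) were among 3 of 17 signalling genes that were higher and Shc1 (-2.08) and Stat5b (-1.78) among 4 that were lower, 2 of 6 transcription factor genes were higher, Irf8 (1.64) and Runx1 (1.37), and 0 of 3 ligand genes were called. Neutrophil genes summed to 227 to 36900 CPM in these MLCs against 28.7 to 69.7, with 5 of 7 called higher, and dendritic cell markers to 111 to 348 against 75.6 to 92.5, with 3 of 5. Endothelium genes summed to 44.4 to 90.6 CPM against 6.98 to 29.9, with 2 of 2 called higher. Also higher were 2 of 3 B lineage genes, the monocyte gene Ly6c2 and the stem and progenitor gene Ly6a, while 2 of 3 erythroid genes were lower. The part of all these markers in the Flt3 difference was not tested.

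The difference between brain and culture was not the same in the 2 sources for Csf2rb2, but on the ER-Hoxb8 side it also holds the change of line and genotype. Tested as an interaction, the brain effect in ER-Hoxb8 cells minus that in BMD cells was 2.51 (SE 0.61, adjusted p 0.020), 1 of 8 called, where 3.29% of genes were. The call was lost without BMD macrophage 1 (2.42, adjusted p 0.062), BMD macrophage 3 (0.053) or ER-Hoxb8 macrophage 3 (2.28, 0.076), and with the WT libraries alone (2.34, 0.053); without ER-Hoxb8 MLC 6 and microglia 8 it was 2.32 (0.011). Flt3 was at -1.74 (adjusted p 0.44), so a different gain of Flt3 in the 2 sources was not shown. Il3ra was at 4.76 (SE 1.91, 0.19), and with a pseudocount of 1 it was called at 2.97 (0.0092). On the ER-Hoxb8 side, 2 of 3 macrophages and 5 of 6 MLCs were at or under the floor for Il3ra. A fall there could not be seen, so these Il3ra values do not compare the 2 sources. Socs1 (6.23) was the 1 of 8 feedback and target genes called, with 0 of 3 ligand, 17 signalling and 6 transcription factor genes, and the receptor median was -0.45 against -0.19.

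Set against microglia, BMD MLCs differed in the GM-CSF receptor chain. Csf2ra was 8.82-fold higher (3.14, SE 0.53, adjusted p 6.6e-05), and the groups overlapped in that the highest microglia library, 5.41, lay above the lowest BMD MLC. This is 1 of 8 receptors, where 19.8% of genes were called. Csf2rb was at 0.52 (SE 0.25, adjusted p 0.16), and was called with quantile normalisation (0.69, 0.030), without microglia 8 (0.64, 0.050) and without both microglia 8 and ER-Hoxb8 MLC 6 (0.64, 0.0074). Csf1r was at -0.54 (0.65), Kit at 2.08 (0.19), Csf2rb2 and Flt3 at 0.48 and 0.49, Csf3r at 0.06 and Il3ra at -0.30, and the median was 0.49 against 0.07.

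In the same libraries Kitl was higher (3.48) as 1 of 3 ligand genes, Pim1 (2.46) and Myc (2.43) as 2 of 8 feedback and target genes, and Cebpe (3.75) and Myb (2.70) as 2 of 6 transcription factor genes, while Lyn was lower (-0.74) as 1 of 17 signalling genes. Monocyte genes summed to 154 to 358 CPM in BMD MLCs against 10.9 to 52.9 in microglia, and neutrophil genes to 4190 to 30500 against 360 to 5360. Dendritic cell markers summed to 61 to 217 CPM against 32.9 to 78.7, with Cd209a and Bst2 called higher. Megakaryocyte genes summed to 58.5 to 401 CPM against 0.208 to 21.4, with Pf4 higher. The stem and progenitor genes Hlf and Meis1 were lower. The part of all these markers in the Csf2ra difference was not tested.

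ER-Hoxb8 MLCs differed from microglia in 5 receptors. Higher were Csf2ra, 8.56-fold (3.10, SE 0.53, adjusted p 4.2e-05), Csf2rb2, 3.94-fold (1.98, SE 0.32, adjusted p 2.6e-05), and Csf2rb, 2.73-fold (1.45, SE 0.25, adjusted p 4.8e-05). Lower were Csf1r, 4.66-fold (-2.22, SE 0.66, adjusted p 0.0099), and Flt3, 2.85-fold (-1.51, SE 0.53, adjusted p 0.030). All groups overlapped, and the share of all genes called was 33%.

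Within these 5 calls, Csf1r rests on the WT libraries: with the GFP libraries alone it was at -0.68 (adjusted p 0.51). Of these WT libraries, ER-Hoxb8 MLC 4 and 5 hold the neutrophil RNA and 6 the monocyte gene RNA named above. Neutrophil genes summed to 227 to 36900 CPM in ER-Hoxb8 MLCs against 360 to 5360 in microglia, with 0 of 7 called. The part of this RNA in the Csf1r call was not tested. Flt3 was not called without ER-Hoxb8 MLC 1, 2 or 5 (-1.37 to -1.09, adjusted p 0.066 to 0.11), with the WT libraries alone (-1.23, 0.17), with quantile normalisation (-1.34, 0.063), with a replicate block (-1.37, 0.093) or without the 2 microglia libraries whose column names begin with YSWT (-1.36, 0.062). Without ER-Hoxb8 MLC 6 and microglia 8, the 5 stayed called, with Csf1r at -1.87 (0.012) and Flt3 at -1.69 (0.017). Il3ra was then called too, at -2.79 (0.025), against -1.72 (0.20) with those libraries. All ER-Hoxb8 MLCs left in that fit are at or under the floor for Il3ra, so the size of its value is uncertain. Kit was at 2.25 (0.11), and was called with a replicate block (2.57, 0.037) and with the WT libraries alone (3.92, 0.022), but was at 1.57 (0.30) and 1.66 (0.27) without ER-Hoxb8 MLC 5 or 6. Csf3r was at -0.70 (0.36), and the receptor median was 0.37 against -0.10.

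Here 5 of 8 feedback and target genes were higher, Socs1 (5.99), Pim1 (5.25), Cish (2.28), Socs3 (1.94) and Myc (1.60), with 1 of 17 signalling genes, Jak2 (1.66), and 1 of 3 ligand genes, Flt3l (2.11). Pik3r1 (-1.15) and Cebpa (-2.11) were the 1 signalling and 1 of 6 transcription factor genes that were lower. Dendritic cell markers (5 genes) summed to 111 to 348 CPM in ER-Hoxb8 MLCs against 32.9 to 78.7 in microglia, stem and progenitor genes (5 genes, led by Ly6a in ER-Hoxb8 MLCs) to 78.2 to 1510 against 53.4 to 144, and monocyte genes to 91.0 to 5730 against 10.9 to 52.9. By gene, Ly6a was called higher but Cd34, Hlf and Meis1 lower, and Bst2 higher but the dendritic cell gene Zbtb46 lower, so the sums of these 2 lists follow single genes. Their part in these receptor differences was not tested.

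Between the 2 transplanted groups, ER-Hoxb8 MLCs had more of both beta chains and less Flt3 than BMD MLCs. Csf2rb2 was 2.81-fold higher (1.49, SE 0.35, adjusted p 0.0050), Csf2rb 1.91-fold higher (0.93, SE 0.27, adjusted p 0.021) and Flt3 lower (-2.0, SE 0.58, adjusted p 0.021), with overlap for each, and 3 of 8 receptors called where 14.7% of genes were. The microglia, BMD MLC and ER-Hoxb8 MLC libraries each serve in 2 or more of these comparisons. Csf1r was at -1.68 (SE 0.72, adjusted p 0.12), and was called with a replicate block (0.049), without ER-Hoxb8 MLC 1 (-2.14, 0.041) and with the WT libraries alone (-3.23, 0.0049), but was at -1.08 (0.30) without ER-Hoxb8 MLC 6.

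Of these calls, Csf2rb2 was kept in each fit that left out 1 library. Csf2rb was lost without BMD MLC 5 (0.79, adjusted p 0.065) or ER-Hoxb8 MLC 6 (0.67, 0.054), with the GFP libraries alone (0.61, 0.15), with quantile normalisation (0.69, 0.061) and in the fit of the 2 groups alone (0.058), and Flt3 without any 1 of 3 libraries (-1.84 to -1.58, 0.054 to 0.067), with the WT libraries alone (-1.72, 0.11), with quantile normalisation (-1.59, 0.075) and in the fit of the 2 groups alone (0.092). Without ER-Hoxb8 MLC 6 and microglia 8 together, all 3 stayed called, at 0.67 (0.017) for Csf2rb, 1.30 (0.0065) for Csf2rb2 and -2.29 (0.0071) for Flt3. Csf1 was higher (3.73) as 1 of 3 ligand genes, Socs1 (5.77), Pim1 (2.79) and Socs3 (2.63) as 3 of 8 feedback and target genes, and Jak2 (1.41) and Lyn (0.55) as 2 of 17 signalling genes, while Myb was lower (-3.11) as 1 of 6 transcription factor genes. For the 8 receptors the median was -0.40, against -0.21. Neutrophil genes summed to 227 to 36900 CPM in ER-Hoxb8 MLCs against 4190 to 30500 in BMD MLCs, with Ltf, Camp and Ngp called lower, and megakaryocyte genes to 4.37 to 114 against 58.5 to 401, with Pf4 lower, while the dendritic cell genes Bst2 and Xcr1 were higher and Cd209a lower. Endothelium genes summed to 44.4 to 90.6 CPM against 10.6 to 28.2, with Pecam1 and Flt1, the 2 tested, called higher. Of the stem and progenitor genes, Ly6a was higher and Cd34 lower. The part of all these markers was not tested.

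By group mean, Csf1r in this set ran from microglia 11.32 (SD 1.34) through BMD macrophages 11.27 (0.53), BMD MLCs 10.78 (0.70) and ER-Hoxb8 macrophages 10.02 (1.31) to ER-Hoxb8 MLCs 9.10 (1.93), with no neighbours apart beyond their spread. Csf2ra ran from BMD MLCs 5.59 (1.10), ER-Hoxb8 MLCs 5.55 (0.47), ER-Hoxb8 macrophages 4.90 (0.61) and BMD macrophages 4.49 (0.16) to microglia 2.45 (1.42), where only the last step exceeds the spread. Flt3 ran from BMD MLCs 2.75 (1.18), microglia 2.26 (0.50) and ER-Hoxb8 MLCs 0.75 (1.47) to BMD macrophages -1.79 (0.47) and ER-Hoxb8 macrophages -2.06 (0.74). Its first 3 and its last 2 groups are neighbours within their spread, and the step between ER-Hoxb8 MLCs and BMD macrophages exceeds it. This order goes by SD and is not a test: limma did call Flt3 lower in ER-Hoxb8 MLCs than in microglia (-1.51, adjusted p 0.030).

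For the Adar1 guides, the targeted gene comes first. Adar stood at 4.20, 3.42 and 4.28 log2 CPM in NTC progenitors and at 4.36, 4.23 and 4.24 in progenitors labelled sgRNA 1 (0.31, adjusted p 0.92). In macrophages it stood at 5.73 and 5.67 in NTC libraries 1 and 3, with 5.86 in library 2 of the set of 1, and at 6.96, 7.15 and 7.01 with sgRNA 1, which is higher (1.34, SE 0.21, adjusted p 9.7e-04). With sgRNA 2, progenitors had 4.35, 4.56 and 4.36 and macrophages 7.02, 7.00, 7.02, 7.03 and 6.99. Adar RNA was thus not called lower with sgRNA 1 here, and sgRNA 2 has no NTC library in its set to compare with. Because an edit need not lower the RNA, these values do not check the edit; the groups are named by their labels.

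In progenitors of the set of 11, Csf1r stood at 4.22, 2.64 and 3.31 log2 CPM with NTC and 3.97, 3.34 and 3.20 with sgRNA 1, and Kit at 5.57, 4.62 and 4.97 against 5.50, 4.90 and 5.00. Csf2ra was 4.13, 4.07 and 3.89 against 4.10, 3.61 and 3.83, Csf2rb 6.73, 6.68 and 6.99 against 7.01, 6.99 and 6.96, and Csf3r 4.66, 3.88 and 3.83 against 4.42, 3.67 and 3.85. All of these overlapped. Flt3 did not: it was 0.88, -0.29 and 0.55 with NTC and 2.08, 1.71 and 1.89 with sgRNA 1. Csf2rb2 was 1.67, 0.65 and 1.67 against 1.44, 1.40 and 1.55, and Il3ra -1.47, -1.32 and -3.43 against -0.83, -1.86 and -3.43.

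In macrophages of that set, Csf1r stood at 11.84 and 11.66 log2 CPM with NTC (11.65 in library 2) and at 10.21, 10.44 and 10.46 with sgRNA 1. Csf2ra was 4.36 and 4.93 (4.25) against 5.70, 5.48 and 5.58, and Csf3r 8.71 and 8.49 (8.33) against 7.66, 7.37 and 7.27. None of these 3 overlapped, with NTC library 2 counted or not. Csf2rb was 8.10 and 7.97 (8.03) against 7.85, 8.16 and 7.99, Csf2rb2 6.10 and 5.98 (6.10) against 4.40, 5.57 and 5.49, and Il3ra 0.68 and 2.10 (1.58) against 0.37, 1.62 and 2.14. Kit was at -3.43, no reads, in all 5 libraries, with -0.73 in NTC library 2, and Flt3 was -1.90 and -2.26 (-1.92) against -2.08, -2.37 and -1.97.

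**Figure D3:**
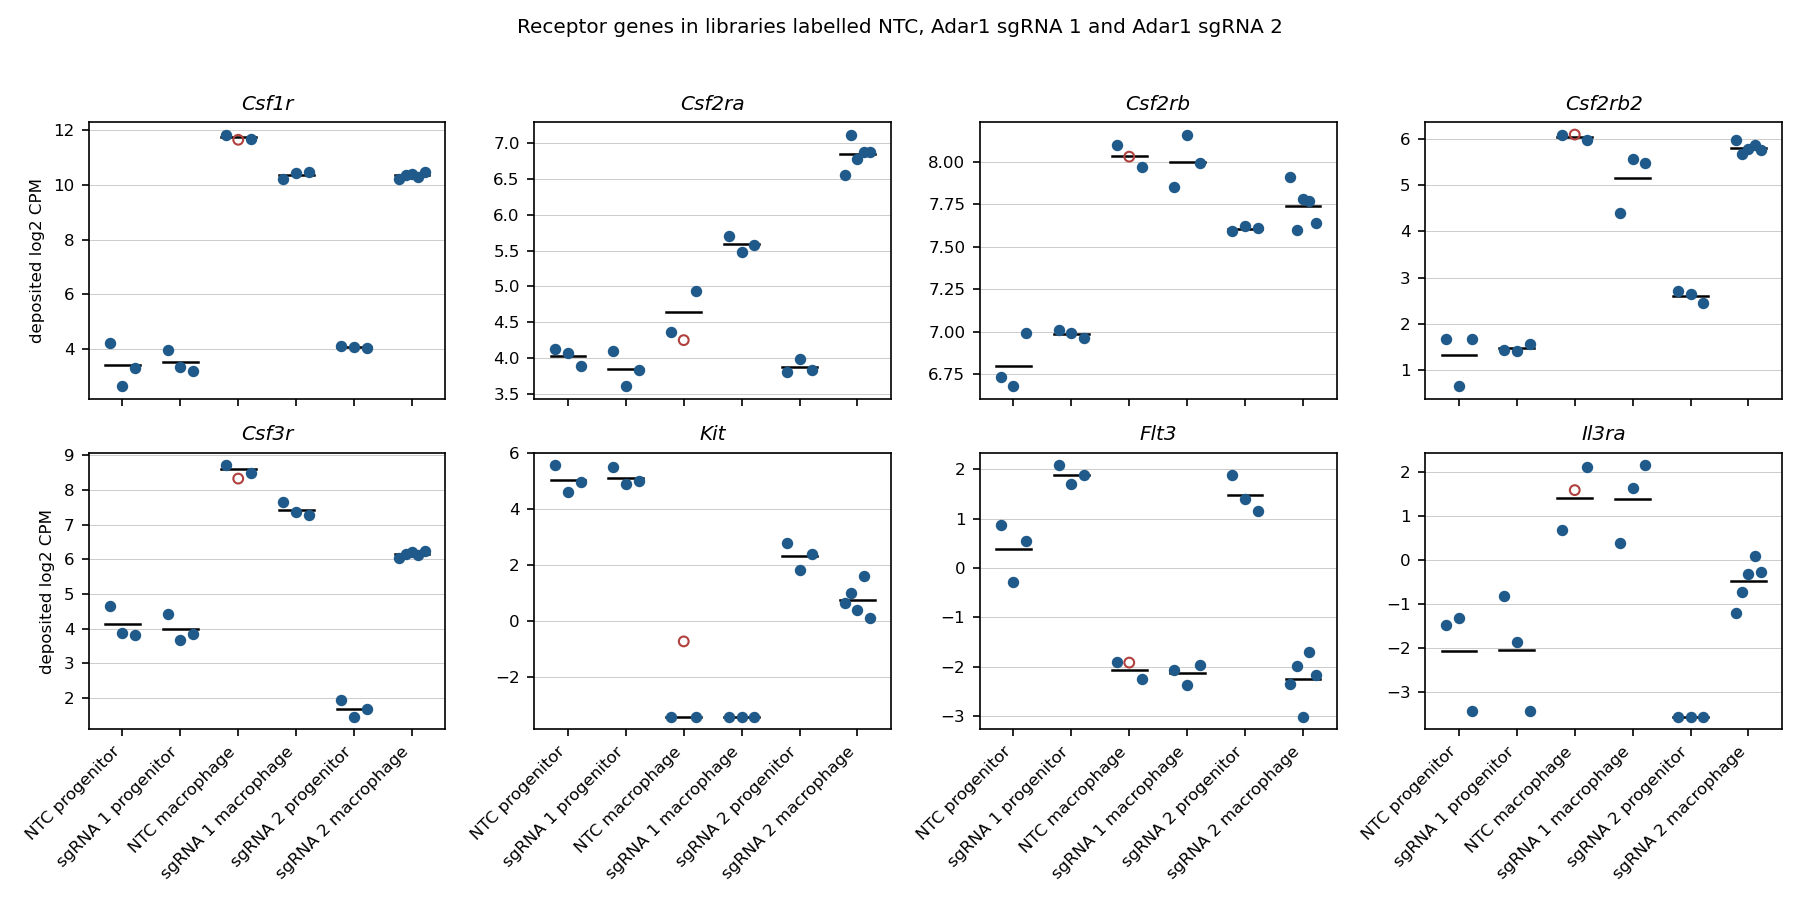
Levels of the 8 receptors in progenitors and macrophages with NTC, Adar1 sgRNA 1 or Adar1 sgRNA 2, as deposited log2 CPM; dots are libraries, bars are group means, and the open red circle is NTC macrophage 2, which has another lowest value and is left out of the mean. Csf1r lies at 2.64 to 4.22 in NTC and sgRNA 1 progenitors and at 10.21 to 11.84 in their macrophages.

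In progenitors, sgRNA 1 left no receptor called against NTC by limma, with 1 of 8 at an unadjusted p below 0.05, where 0.862% of 11258 genes were called. That 1 is Flt3, above every NTC value in 3 of 3 libraries, at 1.51 (SE 0.35, adjusted p 0.094), which was called with a pseudocount of 1 (1.05, 0.014). The other 7 were between -0.18 and 0.19, and the median was 0.10 against -0.01. None of 2 ligand, 17 signalling, 7 feedback and 5 transcription factor genes was called, with 0, 0, 0 and 1 at an unadjusted p below 0.05.

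Macrophages with sgRNA 1 had less Csf1r and Csf3r and more Csf2ra than NTC macrophages. Csf1r was 2.60-fold lower (-1.38, SE 0.36, adjusted p 0.018), Csf3r 2.24-fold lower (-1.17, SE 0.27, adjusted p 0.0094) and Csf2ra 1.93-fold higher (0.95, SE 0.19, adjusted p 0.0050), 3 libraries against 2. They are 3 of 8 called, where 21.9% of genes were. In the baricitinib set, none of these 3 was called in the same direction at 0 µM. Some fits without 1 library lost calls, and where an NTC macrophage is left out, here and below, 1 is left and is assumed to vary like the other groups: Csf1r was lost without sgRNA 1 macrophage 1 (adjusted p 0.053), NTC macrophage 1 (0.10) or NTC macrophage 3 (0.053), and without NTC macrophage 1 Csf2ra (0.66, 0.068) and Csf3r (-1.06, 0.075) were lost too. Csf2rb2 did not overlap and was at -0.89 (SE 0.37, adjusted p 0.11), Csf2rb was at -0.03, Il3ra at -0.02 and Flt3 at -0.06, and the median was -0.05 against 0.04.

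Csf1, the gene of the Csf1r ligand, was higher with sgRNA 1 (2.05, SE 0.40, adjusted p 0.0039), 1 of 2 ligand genes tested. Of 7 feedback and target genes 3 were higher, Myc (1.82), Pim1 (1.72) and Bcl2l1 (1.11), of 17 signalling genes 2 were higher, Jak2 (0.89) and Lyn (0.88), and 5 lower, among them Pik3cd (-0.88), Gab2 (-0.76) and Stat5a (-0.66), and Spi1 was lower (-0.63) as 1 of 5 transcription factor genes. Dendritic cell markers summed to 570 to 1020 CPM with sgRNA 1 against 131 to 152 with NTC, stem and progenitor genes (led by Ly6a) to 138 to 549 against 1.74 to 2.63, and monocyte genes to 407 to 1130 against 210 to 279. Of the dendritic cell genes only Bst2 was called, and of the monocyte genes Ly6c2 was higher and Ccr2 lower, so these 2 sums follow single genes, while both stem and progenitor genes tested, Cd34 and Ly6a, were higher, as were the neutrophil genes Ngp and S100a8. Of 5 macrophage markers, Emr1 and Mertk were lower and Fcgr1 higher. Endothelium genes summed to 101 to 141 CPM against 30.8 to 48.1, with Flt1 called higher. The paper reports interferon-stimulated genes raised in Adar1 KO macrophages, and the share of that response in these marker sums was not tested. The part of all these markers in the receptor differences was not tested.

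From progenitor to macrophage, NTC cells changed in all 8 receptors, where 71.4% of genes were called. Csf1r rose 328-fold (8.36, SE 0.36, adjusted p 3.0e-09), Csf2rb2 26.2-fold (4.71, SE 0.37, 4.1e-07), Csf3r 22.2-fold (4.48, SE 0.27, 4.2e-08), Il3ra (3.46, SE 0.86, 0.0036), Csf2rb 2.35-fold (1.23, SE 0.12, 3.1e-06) and Csf2ra 1.53-fold (0.62, SE 0.19, 0.013). Kit fell at least 256-fold, to no reads in the 2 macrophage libraries tested (adjusted p 8.1e-10), while NTC macrophage 2 had -0.73, and Flt3 fell 5.51-fold (-2.46, SE 0.39, 1.4e-04). The Flt3 fold is of uncertain size, as 1 of the 2 macrophage libraries tested was at or under the floor. None of the 8 overlapped, and only Csf2ra lost its call when 1 library was left out, without NTC macrophage 3 (0.33, 0.19), which leaves 1 library in that arm. By column name the progenitors and NTC macrophage 2 are NTC2 and the 2 macrophages tested NTC, so a change of control line cannot be told apart from differentiation. The median was 2.35 against -0.07 over all genes.

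Cells with sgRNA 1 changed in the same 8, where 70.8% of genes were called: Csf1r was at 6.86 (SE 0.32, adjusted p 5.6e-09), Csf2rb2 at 3.69 (SE 0.33, 1.1e-06), Csf3r at 3.45 (SE 0.24, 1.3e-07), Il3ra at 3.41 (SE 0.77, 0.0019), Csf2ra at 1.74 (SE 0.17, 2.9e-06), Csf2rb at 1.02 (SE 0.11, 5.7e-06) and Flt3 at -4.03 (SE 0.35, 8.6e-07), and Kit fell at least 290-fold (3.5e-10). With 1 of 3 macrophages at or under the floor for Flt3, the size of its fall is uncertain. The receptor median was 2.58 against -0.05. In each, 9 of 17 signalling genes rose and 2 fell, 7 and 1 of them the same, and in both 1 of 7 feedback and target genes rose and 5 fell, with Cish at -7.86 in NTC and -7.93 with sgRNA 1, Socs2 at -5.47 and -5.36 and Myc at -6.02 and -4.40, and 3 of 5 transcription factor genes rose and 2 fell, with Irf8 at 3.57 and Myb at least 659-fold lower in NTC. Csf1 (2.65) and Flt3l (1.16) rose with sgRNA 1 as 2 of 2 ligand genes, against 0 of 2 in NTC. Neutrophil genes summed to 16900 to 25200 CPM in NTC progenitors and 5.76 to 15.5 in NTC macrophages, and to 12100 to 18200 and 68.8 to 82.1 with sgRNA 1, and their part in these changes was not tested.

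The test of whether this change differs between sgRNA 1 and NTC called 1 of 8 receptors, where 13.6% of genes were called. As given above, the NTC change may hold a change of control line, which this test cannot tell apart from a difference in differentiation. Csf2ra rose more with sgRNA 1, by 1.13 (SE 0.26, adjusted p 0.015), and was at 0.84 (0.070) without NTC macrophage 1. Csf1r was at -1.49 (SE 0.48, adjusted p 0.064), Flt3 at -1.57 (SE 0.52, 0.069) and Csf3r at -1.02 (SE 0.36, 0.082). Without NTC progenitor 1 these 3 were called, at -1.91 (0.0050), -1.82 (0.042) and -1.29 (0.016); with a pseudocount of 1 Csf1r (-1.48, 0.046) and Flt3 (-1.06, 0.020) were, with quantile normalisation Flt3 (-1.91, 0.033), and with a replicate block Csf3r (-0.92, 0.016). Csf1 (2.58) was the 1 of 2 ligand genes called, 1 of 17 signalling genes was higher, Lyn (0.67), and 2 lower, Pik3cd (-1.20) and Gab2 (-0.79), 2 of 7 feedback and target genes were higher, Myc (1.62) and Bcl2l1 (0.87), and 0 of 5 transcription factor genes were called. Here the median was -0.62 against 0.07.

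The cells with sgRNA 2 form their own set with no NTC library, so only their change from progenitor to macrophage can be given. Csf1r stood at 4.10, 4.07 and 4.03 log2 CPM in progenitors and at 10.22, 10.36, 10.41, 10.30 and 10.48 in macrophages, and Csf3r at 1.94, 1.46 and 1.70 against 6.03, 6.16, 6.21, 6.14 and 6.23. Csf2ra stood at 3.81, 3.99 and 3.84 against 6.55, 7.12, 6.78, 6.88 and 6.88, and Csf2rb2 at 2.70, 2.65 and 2.44 against 5.98, 5.67, 5.79, 5.87 and 5.77. For these 4 each macrophage lay above each progenitor. Kit was 2.81, 1.81 and 2.39 against 0.64, 1.01, 0.40, 1.60 and 0.12, and Flt3 1.88, 1.39 and 1.15 against -2.35, -1.98, -3.02, -1.70 and -2.18, each lower in all 5 macrophages. Csf2rb overlapped, at 7.59, 7.62 and 7.61 against 7.91, 7.60, 7.78, 7.77 and 7.64, and Il3ra had no reads in the 3 progenitors and was -1.21, -0.72, -0.33, 0.08 and -0.27 in macrophages.

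Of the 7 tested with sgRNA 2, 6 changed, where 81.3% of 10698 genes were called. Csf1r rose by 6.29 (SE 0.06, adjusted p 1.5e-13), Csf3r by 4.46 (SE 0.11, 7.3e-11), Csf2rb2 by 3.22 (SE 0.09, 2.5e-10) and Csf2ra by 2.96 (SE 0.11, 1.8e-09), and Flt3 (-3.72, SE 0.36, 3.5e-06) and Kit (-1.58, SE 0.35, 0.0018) fell. The size of the Flt3 fall is uncertain, with 4 of 5 macrophages at or under the floor. Csf2rb was at 0.13 (SE 0.06, adjusted p 0.081), and was called with quantile normalisation (0.25, 0.0060) and without sgRNA 2 macrophage 2 (0.17, 0.023). Il3ra fell below the filter on low values and was at least 5.69-fold higher in macrophages. The median was 2.96 against -0.03. All 3 ligand genes rose, Kitl (5.80), Csf1 (3.32) and Flt3l (0.74), 10 of 16 signalling genes rose and 3 fell, 1 of 7 feedback and target genes rose and 5 fell, with Cish at -7.96 and Socs2 at -6.90, and 3 of 5 transcription factor genes rose and 1 fell. Neutrophil genes summed to 2310 to 2840 CPM in progenitors and 21.5 to 27.5 in macrophages, dendritic cell markers to 38.8 to 40.6 and 461 to 535, with Bst2 called, and stem and progenitor genes to 1.93 to 2.78 and 40.0 to 69.6, with Ly6a called, and their part was not tested.

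In the baricitinib set, Adar again comes first. In NTC macrophages it stood at 5.12, 4.94 and 4.69 log2 CPM at 0 µM and 3.70, 3.64 and 3.22 at 10 µM, with 3.92 to 5.04 between. In libraries labelled Adar1 KO it stood at 7.42, 6.52 and 6.37 at 0 µM and 1.55, 2.15, 2.91 and 2.03 at 10 µM, with 4.12 to 7.38 between. Without drug the labelled KO was thus higher (1.85, adjusted p 0.0051) and at 10 µM lower (-1.36, adjusted p 0.015), and the change from 0 to 10 µM was more negative in the KO by the test of the difference (-3.21, adjusted p 3.7e-04).

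Csf1r in NTC macrophages stood at 10.58, 10.69 and 10.41 log2 CPM at 0 µM, 10.48, 10.89 and 10.73 at 0.0006 µM, 10.61, 10.67, 10.70 and 10.75 at 0.016 µM, 10.82, 10.71, 10.93 and 10.49 at 0.4 µM and 10.59, 10.99 and 10.43 at 10 µM. In Adar1 KO macrophages it stood at 10.62, 10.65 and 10.59 at 0 µM, 9.91, 10.47 and 10.04 at 0.0006 µM, 10.63, 10.43 and 10.35 at 0.016 µM, 11, 11.32 and 10.68 at 0.4 µM and 7.98, 8.51, 9.37 and 8.90 at 10 µM. Only the 4 KO libraries at 10 µM fell below 9.5, and all other groups shared a range of 9.91 to 11.32.

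Csf3r in NTC macrophages stood at 6.42, 5.90 and 6.18 log2 CPM at 0 µM, 5.96, 6.19 and 5.85 at 0.0006 µM, 5.90, 5.80, 5.85 and 6.12 at 0.016 µM, 5.70, 5.53, 5.64 and 5.62 at 0.4 µM and 4.14, 3.99 and 4.06 at 10 µM. Adar1 KO macrophages had 7.66, 7.67 and 7.71 at 0 µM, 7.16, 7.37 and 7.20 at 0.0006 µM, 7.47, 7.44 and 7.33 at 0.016 µM, 6.44, 7.78 and 6.27 at 0.4 µM and 3.80, 2.98, 3.86 and 3.96 at 10 µM. Up to 0.4 µM each KO library lay above each NTC library of its dose, and at 10 µM each lay below. The high value at 0.4 µM is library 2, which stands apart in its markers.

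Csf2ra in NTC macrophages ran from 4.97 to 6.52 log2 CPM over all doses, with 6.52, 5.30 and 5.34 at 0 µM and 5.41, 5.16 and 5.58 at 10 µM. In Adar1 KO macrophages it stood at 5.06, 5.46 and 5.60 at 0 µM, 5.25, 6.19 and 5.80 at 0.0006 µM, 5.65, 5.35 and 5.73 at 0.016 µM, 5.68, 6.00 and 6.51 at 0.4 µM and 6.64, 5.06, 6.50 and 6.52 at 10 µM. Of the KO libraries at 10 µM, 3 lay above all 3 without drug and library 2 at 5.06 matched the lowest.

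Csf2rb in NTC macrophages stood at 7.02, 7.02 and 6.85 log2 CPM at 0 µM and 6.27, 6.33 and 6.58 at 10 µM, with 6.55 to 7.10 between, and in Adar1 KO macrophages at 8.31, 7.51 and 6.97 at 0 µM and 6.45, 6.74, 6.44 and 6.26 at 10 µM, with 7.01 to 7.46 between. Csf2rb2 stood at 4.98, 4.82 and 4.52 in NTC at 0 µM and 3.39, 3.80 and 3.58 at 10 µM, with 4.28 to 4.99 between, and in the KO at 5.92, 5.22 and 4.84 at 0 µM and 3.06, 3.72, 3.38 and 3.46 at 10 µM, with 4.12 to 5.04 between. For both chains and both genotypes the 10 µM libraries lay below those without drug. KO library 1 at 0 µM was the highest of all 33 for both.

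Il3ra stood at 1.92, -0.19 and 0.71 log2 CPM in NTC at 0 µM and -1.33, -1.89 and -1.49 at 10 µM, the last 2 at or under the floor, with group means of -1.16 at 0.0006 µM, 0.58 at 0.016 µM and 0.05 at 0.4 µM between. In the KO it stood at 0.77, 0.64 and 0.50 at 0 µM and -2.78, -2.38, -2.78 and -2.78 at 10 µM, all 4 at or under the floor. Neither range at 10 µM overlapped with that at 0 µM, but NTC at 0.0006 µM, from -2.78 to 0.48, reached below that at 10 µM. Kit was at -2.78, no reads, in 29 of the 33 libraries and reached at most -0.79, and Flt3 ran from -2.78 to -0.35, so these 2 were below the filter and not tested.

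**Figure D4:**
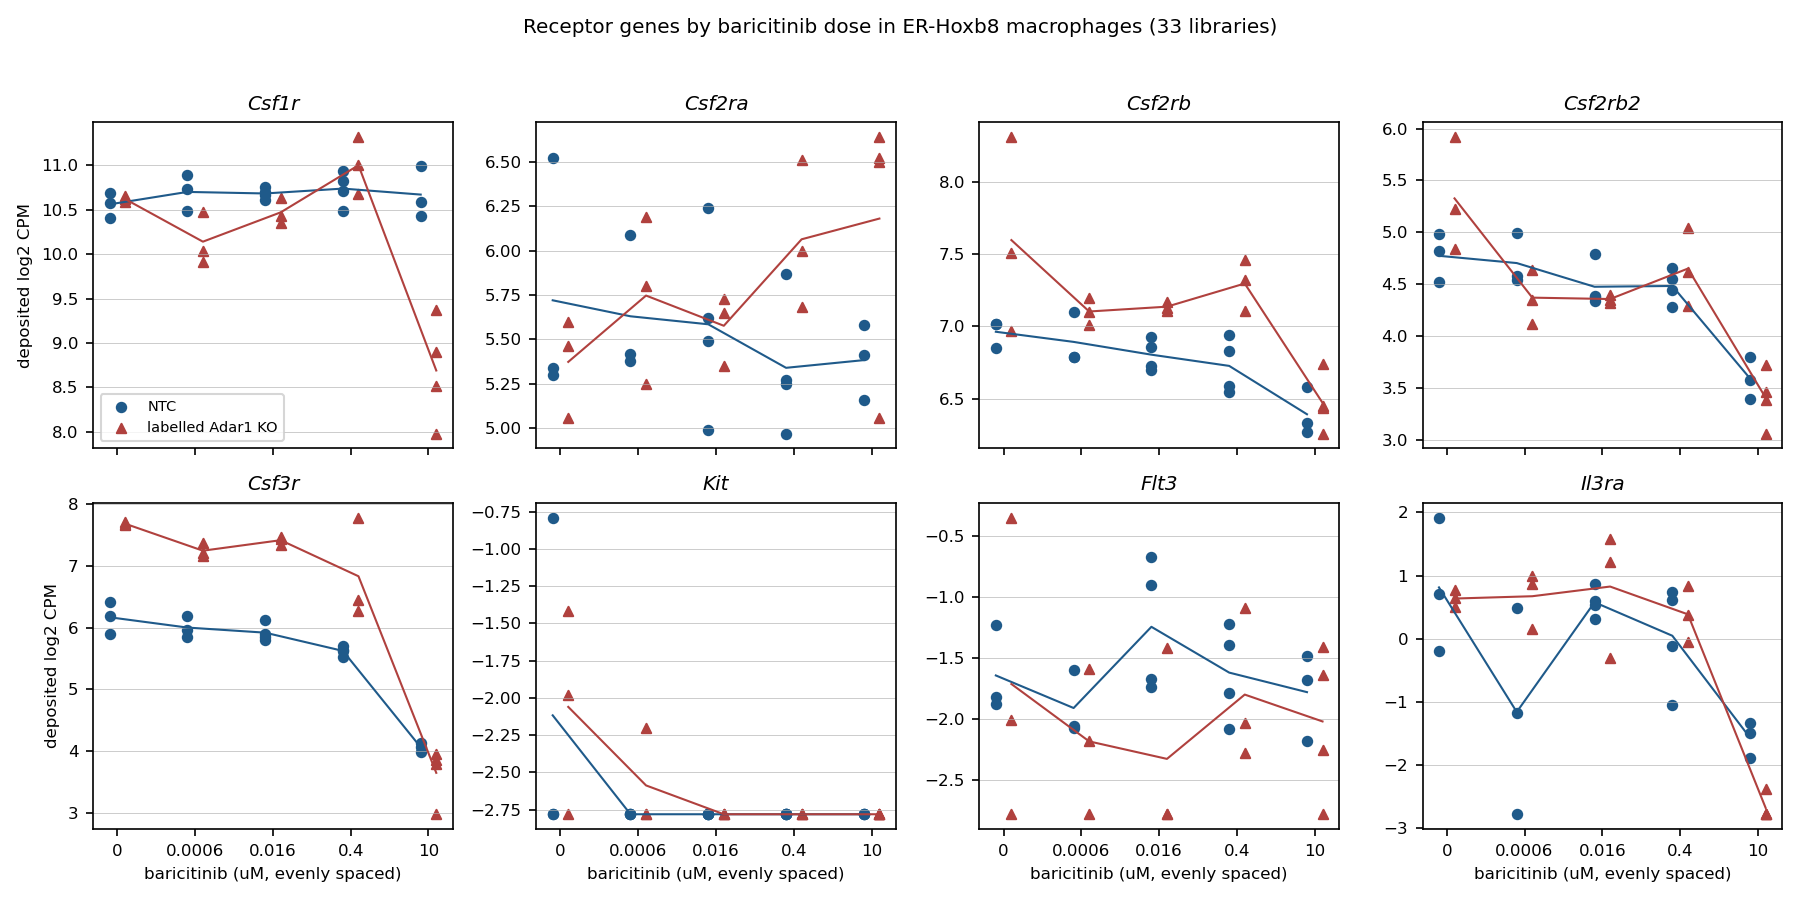
Levels of the 8 receptors against baricitinib dose in 33 macrophage libraries, as deposited log2 CPM, with the 5 doses spaced evenly; circles are NTC, triangles are libraries labelled Adar1 KO, and lines join group means. Csf1r at 10 µM lies at 7.98 to 9.37 in the KO and 10.43 to 10.99 in NTC, and Csf3r falls in both.

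Without drug, macrophages labelled Adar1 KO had more G-CSF receptor RNA than NTC. Csf3r was 2.86-fold higher (1.51, SE 0.24, adjusted p 3.5e-05), in 3 of 3 libraries with no overlap. Csf2rb was 1.55-fold higher (0.63, SE 0.19, adjusted p 0.016), with overlap, and this call rests on KO library 1: without it the value was 0.28 (0.22). Csf2rb was also lost without NTC 0 µM library 3 (0.57, 0.064) and in the fit of the 2 groups alone (0.15), and Csf2rb2, at 0.55 (SE 0.22, 0.067), was called without KO library 3 (0.80, 0.012). Of the 6 receptors tested 2 were called, where 25.3% of 11152 genes were, and Csf1r (0.06, adjusted p 0.87), Csf2ra (-0.34, 0.54) and Il3ra (-0.18, 0.87) were not.

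Csf3r thus stood on the other side of NTC than in the set of 11, where sgRNA 1 macrophages without baricitinib had 7.27 to 7.66 against 8.49 and 8.71. The lower Csf1r (-1.38) and higher Csf2ra (0.95) called in the set of 11 were not called here, at 0.06 and -0.34. These sets have different lowest values and were not compared by a test. Csf1 was higher in the KO at 0 µM (4.25, SE 0.46, adjusted p 8.7e-08) and Kitl lower (-2.34), as 2 of 3 ligand genes. Of 17 signalling genes 4 were higher, Lyn (0.72), Fes (0.67), Ptpn6 (0.55) and Inpp5d (0.52), the cytokine gene Osm was higher (1.31) as 1 of 6 feedback and target genes, and Cebpe was lower (-1.55) as 1 of 4 transcription factor genes. The receptor median was 0.31 against -0.02. Dendritic cell markers (led by Bst2) summed to 418 to 517 CPM in the KO against 82.5 to 95.8 in NTC and stem and progenitor genes to 104 to 129 against 1.06 to 1.72, with Bst2, Ly6a and Cd34 the genes called. These sums follow few genes and need not stand for such cells. The paper reports interferon-stimulated genes raised in Adar1 KO macrophages and lowered by baricitinib. Whether Bst2 and Ly6a belong to that response, and their part in the receptor differences, was not tested.

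At 10 µM the KO differed from NTC in Csf1r, which was 3.95-fold lower (-1.98, SE 0.21, adjusted p 1.3e-08) in 4 of 4 libraries with no overlap. It was the 1 receptor called of 6, where 45.3% of genes were. Csf2ra was at 0.79 (SE 0.34, adjusted p 0.060), and was called with a replicate block (0.86, 0.049) and without KO 10 µM library 2 (1.17, 0.0039). Csf3r was at -0.41 (0.14), Il3ra at -1.11 (0.11), Csf2rb2 at -0.18 and Csf2rb at 0.08, and the median was -0.30 against 0.00. Csf1 remained higher (1.48) and Kitl lower (-3.85) as 2 of 3 ligand genes, while 10 of 17 signalling genes were lower, with Fes at -1.31, Shc1 at -1.24 and Stat5a at -0.72, and 2 higher, 2 of 6 feedback and target genes were lower, Bcl2l1 (-2.44) and Osm (-0.98), and 0 of 4 transcription factor genes were called. Stem and progenitor genes summed to 11 to 15.6 CPM against 1.73 to 2.27, with Cd34 called, the neutrophil genes Camp and S100a8 were higher, and of the monocyte genes Ly6c2 was higher and Ccr2 lower; their part was not tested.

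In NTC macrophages 10 µM baricitinib lowered the G-CSF and IL-3 receptors and left Csf1r where it was in value, at 0.11. Csf3r fell 4.29-fold (-2.10, SE 0.24, adjusted p 1.5e-06), Il3ra by an uncertain fold (-2.38, SE 0.60, adjusted p 0.0093, 2 of 3 libraries at or under the floor), Csf2rb2 2.27-fold (-1.18, SE 0.22, adjusted p 8.0e-04) and Csf2rb 1.49-fold (-0.57, SE 0.19, adjusted p 0.044), none with overlap. They are 4 of 6 receptors, where 13.8% of genes were called. Csf3r and Csf2rb2 are among the promoters printed above, and whether their motif matches bear on the drug effect was not tested. Il3ra was lost without NTC 0 µM library 1 (-1.83, adjusted p 0.090). Csf2rb was lost without any 1 of 5 libraries (0.065 to 0.14), with no filter on low values (0.077), with a replicate block (0.053) and with the library number as a block (-0.53, 0.073).

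Of 17 signalling genes 3 fell in NTC, Stat5a (-1.09, adjusted p 3.2e-04), Stat5b (-0.94, 6.6e-05) and Gab2 (-0.67, 0.0021), and 0 of 3 ligand, 6 feedback and 4 transcription factor genes were called. The receptor median was -0.88 against -0.00. Macrophage markers summed to 2590 to 3270 CPM at 10 µM against 4040 to 4440 at 0 µM, and monocyte genes to 111 to 137 against 264 to 318. Dendritic cell markers summed to 53.5 to 56.9 CPM against 82.5 to 95.8, and endothelium genes to 22.3 to 32.5 against 51.3 to 55.7. B lineage genes summed to 2.08 to 5.13 CPM against 13 to 18.4, while microglia markers were higher in sum, at 1170 to 1340 against 848 to 917. At 0 µM, 1 or 2 of these 4 microglia genes were at or under the floor in each NTC library, so that sum follows few genes. The part of these markers in the NTC receptor changes was not tested.

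In Adar1 KO macrophages the same dose lowered 5 of the 6 receptors tested. Csf3r fell 16.3-fold (-4.03, SE 0.23, adjusted p 3.6e-14), Csf1r 3.82-fold (-1.93, SE 0.21, 4.6e-09), Csf2rb2 3.78-fold (-1.92, SE 0.21, 5.9e-09) and Csf2rb 2.18-fold (-1.13, SE 0.18, 3.8e-06), and Il3ra at least 5.34-fold (9.4e-06), in 4 of 4 libraries each. Csf2ra rose 1.75-fold (0.81, SE 0.34, adjusted p 0.041), with overlap, so that all 6 were called where 65.8% of genes were. The call of Csf2ra was lost without any 1 of 5 libraries (0.65 to 0.85, adjusted p 0.065 to 0.16), with no filter (0.073) and in the fit of the 2 groups alone (0.053).

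With them 13 of 17 signalling genes fell, among them Fes (-2.42), Stat5a (-1.97), Stat5b (-1.95), Shc1 (-1.76) and Gab2 (-1.34), and 2 rose. Csf1 fell (-2.33) as 1 of 3 ligand genes, Bcl2l1 (-3.12) and Osm (-2.80) as 2 of 6 feedback and target genes, and of 4 transcription factor genes Cebpe (1.47) and Runx1 (0.54) rose and Irf8 fell (-1.10). The receptor median was -1.93 against 0.05. Macrophage markers summed to 2240 to 3120 CPM at 10 µM against 3710 to 3920 at 0 µM, monocyte genes to 109 to 155 against 353 to 470, dendritic cell markers to 49.9 to 65.0 against 418 to 517 and stem and progenitor genes to 11 to 15.6 against 104 to 129, with Ly6c2, Bst2 and Ly6a lower and Ccr2 and Cd34 higher. Endothelium genes summed to 31.1 to 39.4 CPM at 10 µM against 70.4 to 88.3, and B lineage genes to 0.912 to 5.84 against 24.5 to 40.9. Microglia markers were higher in sum, at 1510 to 1890 CPM against 671 to 1020. At 0 µM, 1 or 2 of these 4 genes were at or under the floor in each KO library, so the sum follows few genes. The paper reports that baricitinib lowered interferon-stimulated genes in these cells, so the Bst2 and Ly6a values need not stand for other cell types. The part of all these markers in the receptor changes was not tested.

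The drug effect differed between the genotypes for 2 of 6 receptors by the test of the difference, where 39.5% of genes were called. It was more negative in the KO for Csf1r, by -2.04 (SE 0.30, adjusted p 7.0e-06), and for Csf3r, by -1.93 (SE 0.33, adjusted p 5.8e-05). Csf2rb2 was at -0.73 (adjusted p 0.056), Csf2ra at 1.14 (0.073), Csf2rb at -0.55 (0.096) and Il3ra at -0.94 (0.39). Near the threshold, Csf2rb2 was called with a mean CPM above 5 (0.047), with a replicate block (-0.77, 0.048) and without any 1 of 4 libraries (-0.98 to -0.83, adjusted p 0.011 to 0.046). Without KO 0 µM library 3 Csf2rb was called (-0.86, 0.0031), and Csf2ra was called without NTC 0 µM library 2 (1.35, 0.050) or KO 10 µM library 2 (1.51, 0.0091).

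In that test Csf1 was lower (-2.77) as 1 of 3 ligand genes, 10 of 17 signalling genes were lower and 1 higher, Bcl2l1 (-2.75) and Osm (-2.29) were lower as 2 of 6 feedback and target genes, and 2 of 4 transcription factor genes were higher. The receptor median was -0.84 against 0.06. The 5 baricitinib comparisons and the 2 trends share libraries, so they are not separate evidence for each other.

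Over all 5 doses, taken as 4 equal steps, Csf3r fell by 0.46 per step in NTC (SE 0.05, adjusted p 2.3e-06) and by 0.85 in the KO (SE 0.05, 1.6e-13). In NTC, Csf2rb2 fell by 0.26 per step (9.1e-04) and Csf2rb by 0.13 (0.042), 3 of 6 called where 11.7% of genes were. In the KO, Il3ra fell by 0.69 (3.1e-05), Csf2rb2 by 0.36 (2.1e-07), Csf1r by 0.30 (2.7e-06) and Csf2rb by 0.21 (7.5e-05), and Csf2ra rose by 0.19 (0.032), 6 of 6 called where 64.1% of genes were. The Il3ra slope is of uncertain size and rests on 10 µM, where all 4 KO libraries were at or under the floor. From 0 to 10 µM its KO means were 0.64, 0.67, 0.83, 0.39 and -2.68. The group means were not evenly stepped: in NTC, Csf3r was 6.17, 6.00, 5.92, 5.62 and 4.07 from 0 to 10 µM, and in the KO Csf1r was 10.62, 10.14, 10.47, 11 and 8.69, so for these 2 the largest step is that to 10 µM, while Csf2ra in the KO was 5.37, 5.75, 5.58, 6.06 and 6.18.

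The calls of the smaller trends were lost in several fits. Csf2rb in NTC was lost without any 1 of 8 libraries (adjusted p 0.059 to 0.12), with no filter (0.073), with a replicate block (0.050) and with the library number as a block (0.064). Csf2ra in the KO was lost without any 1 of 6 libraries (0.062 to 0.11) and with no filter (0.060). Il3ra in NTC, at -0.36 per step (adjusted p 0.079), was called without NTC 0 µM 2 (-0.46, 0.040) or 0.0006 µM 1 (-0.44, 0.020). Without KO 0.4 µM library 2, which stands apart, the 6 KO trends stayed called, with Csf3r at -0.89 per step and Csf1r at -0.32.

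The median slope of the receptors was -0.20 per step in NTC and -0.33 in the KO, against -0.00 and 0.01 over all genes.

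**Figure D5:**
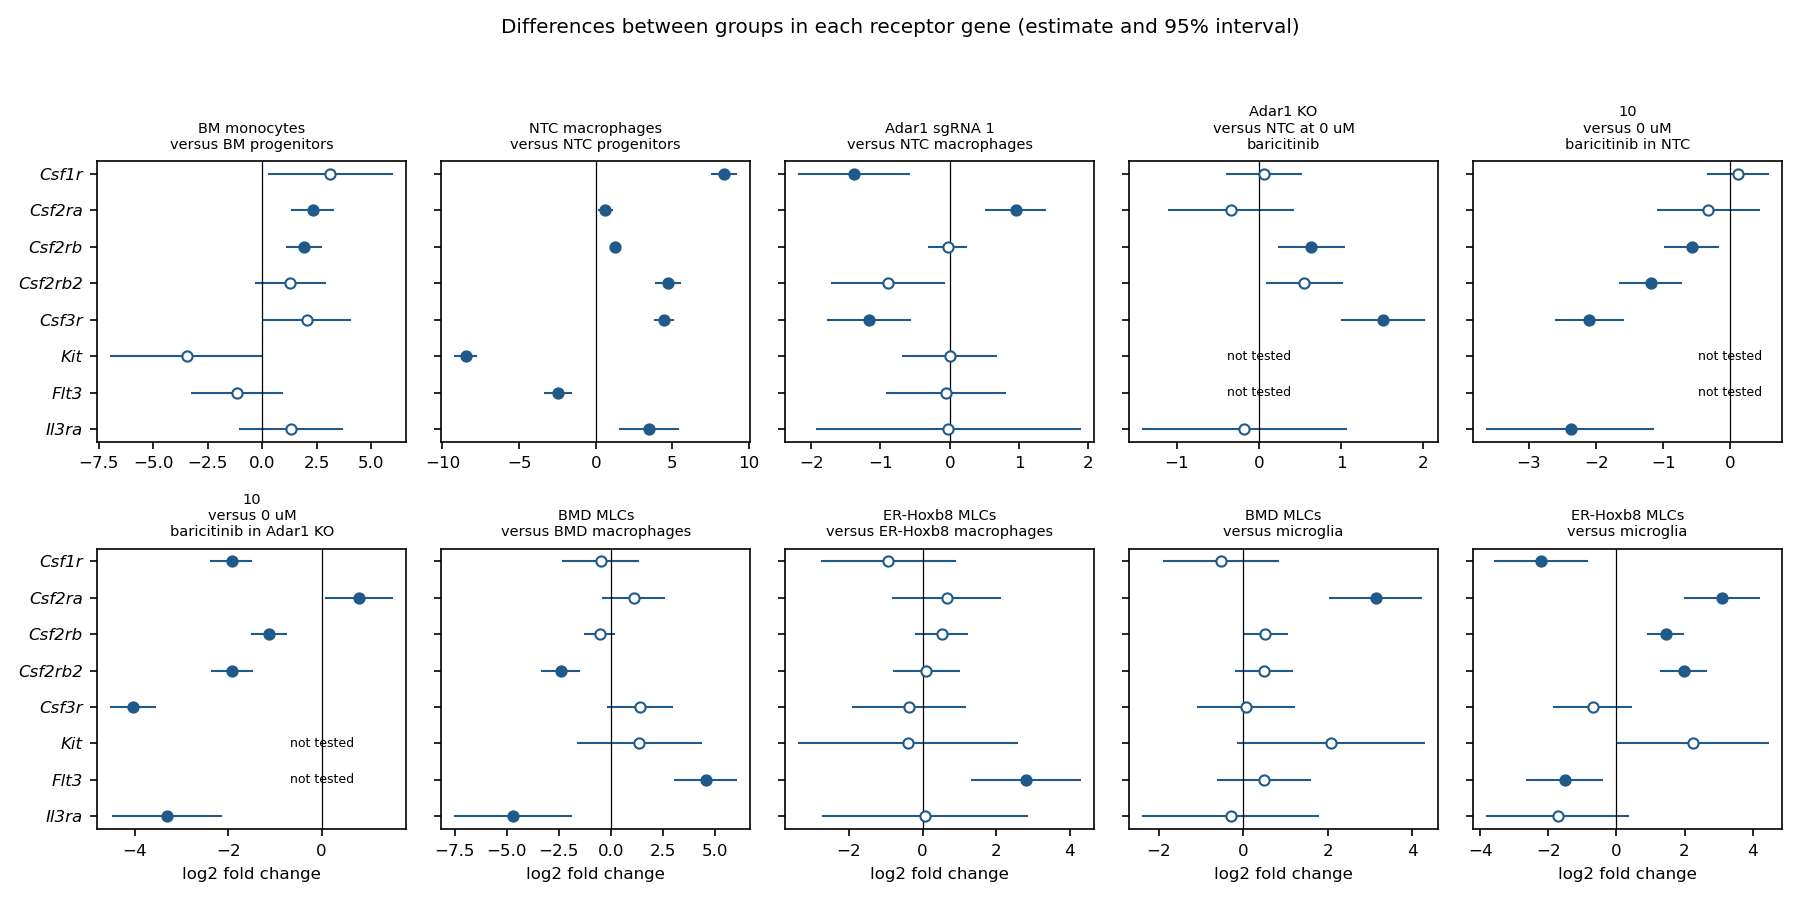
Log2 fold change of the 8 receptors with its 95% interval in 10 of the comparisons; points are estimates, lines are intervals, and filled points are called at an adjusted p below 0.05. Csf3r lies at 1.51 in the KO against NTC at 0 µM, at -2.10 for the drug in NTC and at -4.03 in the KO, and Kit and Flt3 were not tested in the baricitinib set.

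Of the ligands, Il34, Csf2, Csf3, Il3 and Il5, and the IL-5 receptor gene Il5ra, passed the filter on low values in no comparison, and Kitl did not in the set of 11.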

How the data were processed

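The values are log2 CPM made by the authors before the table was deposited: reads were counted with kallisto 0.46.0 on GRCm39, and edgeR and limma are the tools named for the later steps. A prior count of 2 was taken for the step to log2 CPM, from the lowest values. No further transform was applied, and no column was left out. The table has 29957 rows, and the 1 row that carries no gene name was dropped. The 92 columns fall into 6 sets by lowest value, and each set was fitted alone. Genes with a CPM above 1 in enough libraries of a set were tested with limma 3.58.1 in R 4.3.3, with Benjamini-Hochberg adjustment over the tested genes; every adjusted p in the text is from these fits. The fits were tested on simulated data. Tables and plots used Python 3.11.15, pandas 2.3.3, numpy 2.4.6 and matplotlib 3.10.9.

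The highest Pearson r between 2 libraries is 0.9939, so no 2 columns are copies. Labels do not pair libraries. Libraries of the same number correlated, after removal of group means, at 0.23 to 0.43 between day 4 cells and ER-Hoxb8 progenitors and at 0.16 to 0.33 between sgRNA 1 and NTC progenitors, and a replicate block left 0 receptors called in both. The alternatives were a fold limit of log2 2, a mean CPM above 5, no filter, a pseudocount of 1, quantile normalisation, only the 2 groups compared, replicate and library number blocks, subsets of the brain libraries by column name, and leaving out each library in turn. Leaving out ER-Hoxb8 MLC 6 and microglia 8 together was chosen after seeing the data.

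The members and the lists of ligand, signalling, feedback and target, transcription factor and marker genes were chosen by name, with earlier results of these data known. Adgre1 is absent from the table and is present under its older name Emr1.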

Additional observations from a re-analysis of the deposited data

Results flagged for a closer look

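Values that stand far from the rest of their group were looked for in every receptor and every group of 4 or more libraries. Of 56 such groups 8 held one, where chance alone gives about 1 in 20, a rate that need not hold for groups with most libraries at no reads. Csf2ra was 7.60 log2 CPM in BMD MLC 4 (others 4.48 to 5.63) and 5.06 in Adar1 KO 10 µM library 2 (others 6.50 to 6.64). Csf2rb was 9.43 in ER-Hoxb8 MLC 6 (others 7.55 to 8.06), and Csf2rb2 was 4.79 in NTC 0.016 µM library 4 (others 4.34 to 4.39). Csf3r was 2.98 in Adar1 KO 10 µM library 2 (others 3.80 to 3.96), and Kit was -1.11 in microglia 9 (others -3.62 to -3.26). Il3ra was 1.05 in ER-Hoxb8 MLC 6 (others -3.62 to -1.94) and -2.38 in Adar1 KO 10 µM library 2, where the others had no reads; this value is itself at or under the floor and not told apart from them. Some of the 8 come from the same library, so they are not separate.

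Of 22 differences between 2 effects that were tested, 4 were called: Csf2rb2 for the brain effect in ER-Hoxb8 cells minus that in BMD cells (2.51), Csf2ra for differentiation with sgRNA 1 minus NTC (1.13), and Csf1r (-2.04) and Csf3r (-1.93) for 10 µM baricitinib in Adar1 KO minus NTC. The Csf2ra difference may also hold a change of control line, and the Csf2rb2 difference one of line and genotype.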

How the results depend on the processing

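Each receptor value was fitted again under the alternatives, 2942 times in all: 2778 stayed on the same side of the call threshold, 116 no longer passed it, 48 newly passed it, and 0 called values reversed sign. The count of receptors called changed by more than 1.5 times, or to or from 0, as follows, and smaller changes are not listed; except where fewer libraries or fewer genes enter a fit, the cause was not tested. With a fold limit of log2 2 it was 1 for BM monocytes versus BM progenitors (2 before), 2 for ER-Hoxb8 MLCs versus microglia (5), 0 for ER-Hoxb8 MLCs versus BMD MLCs (3), 0 for sgRNA 1 versus NTC macrophages (3), 0 for the differentiation difference (1), 0 and 0 for Adar1 KO versus NTC at 0 and 10 µM (2 and 1), 2 and 2 for 10 versus 0 µM in NTC and Adar1 KO (4 and 6), 1 for the baricitinib difference (2), and 0 and 2 for the dose trends in NTC and Adar1 KO (3 and 6). For the trends this limit applies to the change over all 4 steps, as no slope reaches 2 per step. With only the 2 groups compared it was 8 for BM monocytes versus BM progenitors (2), 0 for ER-Hoxb8 MLCs versus ER-Hoxb8 macrophages (1), 1 for ER-Hoxb8 MLCs versus BMD MLCs (3) and 1 for Adar1 KO versus NTC at 0 µM (2). With a mean CPM above 5 it was 1 for day 4 cells versus monocytes (2), 0 for ER-Hoxb8 versus BMD macrophages (1), 1 for BMD MLCs versus BMD macrophages (3) and 0 for ER-Hoxb8 MLCs versus ER-Hoxb8 macrophages (1). Quantile normalisation gave 2 for BMD MLCs versus microglia (1), 1 for ER-Hoxb8 MLCs versus BMD MLCs (3) and 2 for the differentiation difference (1), and a pseudocount of 1 gave 2 for the brain effect difference (1), 1 for sgRNA 1 versus NTC progenitors (0) and 3 for the differentiation difference. A replicate block gave 2 for the differentiation difference and 2 for Adar1 KO versus NTC at 10 µM (1). The WT libraries alone (WTHox) gave 2 for ER-Hoxb8 MLCs versus ER-Hoxb8 macrophages and 0 for the brain effect difference, and leaving out ER-Hoxb8 MLC 6 and microglia 8, chosen after seeing the data, gave 2 for BMD MLCs versus microglia.

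When each library in turn was dropped, the count was 3 to 7 receptors for ER-Hoxb8 versus BM progenitors (5), 0 to 2 for day 4 cells versus ER-Hoxb8 progenitors (0), 0 to 1 for ER-Hoxb8 versus BMD macrophages (1), 1 to 2 for BMD MLCs versus microglia (1), 0 to 1 for the brain effect difference (1), 0 to 3 for sgRNA 1 versus NTC macrophages (3), 0 to 4 for the differentiation difference (1), 1 to 3 for Adar1 KO versus NTC at 0 µM (2), 1 to 2 at 10 µM (1), and 2 to 4 for 10 versus 0 µM in NTC (4). It was 2 to 3 for day 4 cells versus monocytes (2), 4 to 5 for ER-Hoxb8 MLCs versus microglia (5), 2 to 4 for ER-Hoxb8 versus BMD MLCs (3), 7 to 8 for NTC macrophages versus progenitors (8), 6 to 7 with sgRNA 2 (6), 5 to 6 for 10 versus 0 µM in Adar1 KO (6), 2 to 4 for the baricitinib difference (2), and 2 to 4 and 5 to 6 for the trends in NTC (3) and Adar1 KO (6). The counts of BM monocytes versus BM progenitors (2), BMD MLCs versus BMD macrophages (3), ER-Hoxb8 MLCs versus ER-Hoxb8 macrophages (1), sgRNA 1 versus NTC progenitors (0) and sgRNA 1 macrophages versus progenitors (8) did not change.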
